A study of Mus musculus with 9 samples.

Results

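The endoplasmic reticulum (ER) unfolded protein response was described across 3 groups of mouse CD8+ T cells through 32 genes of the pathway, listed by symbol. The genes cover sensors and transcription factors (5), chaperones and co-chaperones (11), protein disulfide isomerases (4), genes of ER-associated degradation (9) and the translocon (3). Each symbol matched 1 entry among the 55421 genes of the deposited count table, and all 32 were among the 15711 genes with enough counts to be tested.

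Secreted and membrane proteins fold in the ER with the help of chaperones, of which BiP (encoded by Hspa5) is the central one. When unfolded protein accumulates, the membrane sensors IRE1 (Ern1), PERK (Eif2ak3) and ATF6 are released from BiP and signal to the nucleus through XBP1, ATF4 and the cleaved ATF6. Their targets are chaperones, disulfide isomerases and the machinery that returns misfolded proteins to the cytosol for degradation. T cells use the same response when activation raises their demand for protein synthesis. Gene counts do not show IRE1's splicing of Xbp1 RNA, the cleavage of ATF6 or the phosphorylation by PERK.

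The spleen was the source of the CD8+ T cells, and the donor mice were Pmel Ly5.1, a cross that joins a transgenic T-cell receptor against a melanocyte protein with the Ly5.1 form of Ptprc. In the MitoPositive and MitoNegative groups (3 libraries each) they had been cultured for 36 h with DM5, a single immortalised line of bone marrow stromal cells from BL6 mice whose mitochondria were labelled with the red protein DsRed. Sorting on DsRed then gave MitoPositive cells, which carried the label, and MitoNegative cells, which did not. All 9 sample titles carry a time of 0 h, which the labels do not explain and which stands beside the 36 h of the protocol. The monoculture group (3 libraries) had no stromal cells, and the labels do not say whether it was sorted. The study's title concerns mitochondria passed from stromal cells to T cells through nanotubes, so MitoPositive against MitoNegative compares cells with and without the label from the same kind of co-culture, and each against monoculture compares co-cultured with separately cultured cells. Replicates are lettered B, C and D in each group, and since no label says what a letter stands for, p-values measure the spread between these libraries. The age, sex and number of the mice are not given in the labels.

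Total counts were 53546152 to 74722832 per library, and 33 to 67983 reads fell on a member in a library. All 11 markers of CD8+ T cells were present in every group, with summed levels of 9488 to 10873 CPM in monoculture (counts per 1000000, scaled by trimmed mean of M-values), 8672 to 8994 in MitoNegative and 8917 to 9302 in MitoPositive. Of 16 stromal markers, 9 were at 0 in each monoculture library, and the summed level was 0.803 to 1.36 CPM there, 12.3 to 33.3 CPM in MitoNegative and 12.4 to 32.3 CPM in MitoPositive. The 14 markers of B and plasma cells summed to 710 to 782 CPM in monoculture, 376 to 473 CPM in MitoNegative and 284 to 319 CPM in MitoPositive, with the plasma cell receptor Tnfrsf17 at 0 throughout. The 13 myeloid and dendritic markers summed to 15.8 to 28.1, 33.1 to 34.9 and 26.9 to 29.0 CPM in the same order. These levels moved with the groups, and their part in the results below was not tested. Sums also hide single genes. By the test described below, 7 of the 11 CD8+ T cell markers were lower in MitoPositive than in monoculture. In MitoNegative 8 of 11 were lower, and none was higher in either, beside 19.9% and 18.3% of all genes lower. The 11 tested myeloid markers ran from log2 -3.07 to 2.85 in MitoPositive over monoculture, with 2 called higher (18.2%) and 3 lower. Of 13 tested stromal markers 12 were higher and 0 lower in each co-cultured group. Of 13 tested B and plasma markers 8 were lower in each, with 1 higher in MitoPositive and 0 in MitoNegative. Over all genes 22.3% were higher in MitoPositive and 20.6% in MitoNegative. Between the sorted groups 1 B and plasma marker was lower, where 0.165% of all genes were called. In such bulk libraries fewer cells of a type and less RNA per cell cannot be told apart.

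The promoters of these genes are known for the ER stress response element (ERSE), which ATF6 and XBP1 use together with the factor NF-Y. RefSeq's promoter table for GRCm38.p6, which gives 250 bases before and 50 after each start, held 27 of the 32 genes. The element, searched on both strands as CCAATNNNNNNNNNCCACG, was in 9 of these 27 genes (33.3%) and in 37 of all 27025 genes of the table (0.137%). The sites are shown as matches to the element among the members, and 18 members with a promoter entry had none. Each is printed 5′ to 3′ in the direction of the element with 5 flanking bases, capitals mark the letters the search fixed, and Hsp90b1 carried 2 sites.
Hspa5 (chr2:34772020-34772048, plus strand, 47 bases before the start): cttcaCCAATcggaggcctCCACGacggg
Hsp90b1 (chr10:86705528-86705556, plus strand, 89 bases before the start): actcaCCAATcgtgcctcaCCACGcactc
Hsp90b1 (chr10:86705633-86705661, minus strand, 194 bases before the start): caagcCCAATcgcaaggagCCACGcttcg
Calr (chr8:84847070-84847098, plus strand, 144 bases before the start): atgggCCAATgagggtcgaCCACGcgttg
Canx (chr11:50325795-50325823, minus strand, 127 bases before the start): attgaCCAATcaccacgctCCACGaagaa
Creld2 (chr15:88819515-88819543, minus strand, 108 bases before the start): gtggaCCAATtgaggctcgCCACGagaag
Dnajc3 (chr14:118937822-118937850, plus strand, 87 bases before the start): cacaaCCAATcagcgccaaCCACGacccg
Pdia6 (chr12:17266486-17266514, plus strand, 80 bases before the start): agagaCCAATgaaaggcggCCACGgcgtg
Derl3 (chr10:75893237-75893265, minus strand, 138 bases before the start): gctagCCAATggggaagtcCCACGgtaga
Syvn1 (chr19:6046527-6046555, plus strand, 26 bases before the start): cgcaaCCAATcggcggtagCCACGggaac

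Between the capitals the 9 free bases differed from gene to gene, while the sites lay 26 to 194 bases before RefSeq's start. In the deposited annotation Hspa5 begins at base 34771970, so its site lies within the deposited gene. A shorter variant, ERSE-II, searched on both strands as ATTGGNCCACG, was in 12 promoters of the table (0.0365%), among them those of Herpud1 and Dnajb11, and the Herpud1 site is shown as the member with the largest change in its group.
Herpud1 (chr8:94386372-94386392, plus strand, 42 bases before the start): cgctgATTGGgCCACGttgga

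The CCAAT box alone (CCAAT, both strands) was in 22 of the 27 members and in 41.1% of all genes of the table. CCACG alone was in 22 of 27 and 35.5%. Both are parts of the elements above, so these counts overlap with them. The XBP1 motif TGACGTGG was in none of the 27 and in 0.714% of all genes of the table. Only these exact letters were searched. The Hspa5 stretch below holds tgacgtga, which differs in the last letter. The 250 bases before RefSeq's start are shown for 3 genes. For Hspa5 and Hsp90b1 they run into the gene of the deposited annotation. Hspa5 and Hsp90b1 both hold the element, and Eif2ak3, the gene with the largest change in co-culture among the 32, does not. Whether the element bears on any change was not tested. Capitals mark CCAAT or CCACG on either strand.
Hspa5 (chr2:34771840-34772089, plus strand): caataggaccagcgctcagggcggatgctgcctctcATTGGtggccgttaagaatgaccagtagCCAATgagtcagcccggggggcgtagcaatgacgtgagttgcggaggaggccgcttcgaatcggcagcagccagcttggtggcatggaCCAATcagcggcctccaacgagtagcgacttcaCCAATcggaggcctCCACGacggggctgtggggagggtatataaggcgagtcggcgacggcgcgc
Hsp90b1 (chr10:86705445-86705694, minus strand): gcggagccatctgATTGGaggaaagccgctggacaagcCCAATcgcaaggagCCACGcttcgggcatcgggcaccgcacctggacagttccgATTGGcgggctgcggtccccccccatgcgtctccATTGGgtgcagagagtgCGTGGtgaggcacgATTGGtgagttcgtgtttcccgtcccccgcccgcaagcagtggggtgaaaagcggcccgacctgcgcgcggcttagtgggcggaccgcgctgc
Eif2ak3 (chr6:70844265-70844514, plus strand): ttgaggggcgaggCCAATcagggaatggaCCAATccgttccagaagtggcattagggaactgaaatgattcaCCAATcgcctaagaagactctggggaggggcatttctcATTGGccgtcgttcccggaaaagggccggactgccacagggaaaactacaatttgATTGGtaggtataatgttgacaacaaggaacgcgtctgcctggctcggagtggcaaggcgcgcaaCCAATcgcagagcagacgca

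Hspa5 had 4 CCAAT boxes and 1 CCACG here, Hsp90b1 had 5 and 2, and Eif2ak3 had 6 and 0. A match is a description of letters and no site of binding.

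Against monoculture, MitoPositive cells had 15 of the 32 genes higher and 1 lower (edgeR's quasi-likelihood test, Benjamini-Hochberg adjusted p under 0.05 over all genes tested). Over all genes tested 22.3% were higher and 19.9% were lower, so the members stood at 46.9% higher. MitoNegative cells had 7 of 32 higher and 1 lower against monoculture, beside 20.6% and 18.3% of all genes, so the share of higher members (21.9%) was near the background. With the replicate letter as a block, 8 members were higher and 1 lower in MitoNegative, beside 3688 and 3374 of the 15711 genes. The members' median log2 fold change was 0.17 in MitoPositive and 0.07 in MitoNegative, and the median over all genes was 0.0034 and 0.0093. The 2 comparisons share the monoculture libraries, and what separates them is the direct comparison of the sorted groups given further below.

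**Figure D1:**
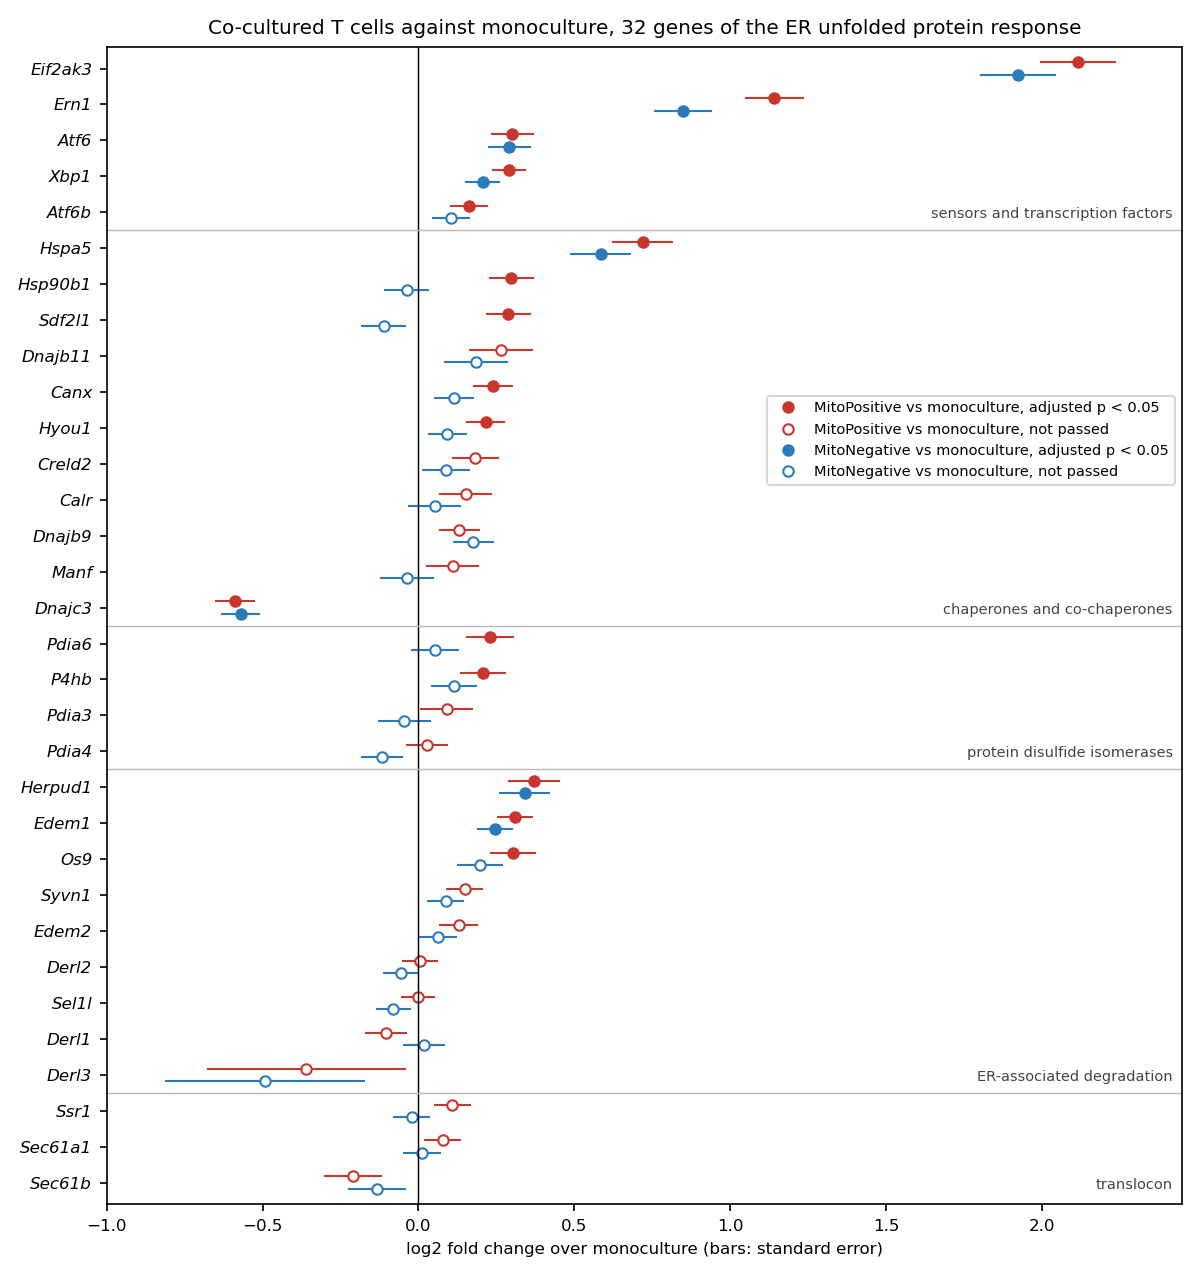
Log2 fold change over monoculture of the 32 genes by role, with standard errors, for MitoPositive (red) and MitoNegative (blue), where filled points passed an adjusted p of 0.05. Eif2ak3 and Ern1 lie farthest to the right in both, Dnajc3 is the only filled point to the left of 0, and none of the 3 translocon genes is filled.

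The sensors and transcription factors held the largest changes. All 5 were higher in MitoPositive than in monoculture, and 4 of 5 (80%) in MitoNegative, beside 22.3% and 20.6% of all genes. Eif2ak3 (chr6:70844515-70905245), which encodes the kinase PERK that slows translation by phosphorylating eIF2alpha, had 69.3, 85.7 and 57.4 CPM in monoculture B, C and D. It had 247, 276 and 283 CPM in MitoNegative and 299, 314 and 307 CPM in MitoPositive. Every co-cultured library was thus above each monoculture library, and MitoPositive did not overlap with MitoNegative. The fold over monoculture was 4.34 in MitoPositive (log2 2.12 ± 0.12 standard error, n = 3 per group, adjusted p = 4.47e-07) and 3.79 in MitoNegative (1.92 ± 0.12, adjusted p = 1.45e-06). On its 250 bases shown above no ERSE was found.

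Ern1 (chr11:106394650-106487852) encodes IRE1, the sensor that splices Xbp1 RNA. Its levels were low, at 8.87, 7.90 and 7.62 CPM in monoculture, 14.5, 14.1 and 15.3 CPM in MitoNegative and 19.4, 18.2 and 16.3 CPM in MitoPositive, again with no overlap between the 3 groups. The rise over monoculture was 2.21-fold in MitoPositive (1.14 ± 0.094, adjusted p = 3.09e-06) and 1.80-fold in MitoNegative (0.85 ± 0.094, adjusted p = 3.98e-05). Xbp1 (chr11:5520659-5525893), the transcription factor made from IRE1's splicing target, had 52.6, 48.3 and 51.7 CPM in monoculture, 57.2, 58.0 and 60.8 CPM in MitoNegative, and 61.7, 64.3 and 60.6 CPM in MitoPositive. Xbp1 rose less than Ern1, by 1.22-fold in MitoPositive (0.29 ± 0.055, adjusted p = 0.00126) and 1.15-fold in MitoNegative (0.21 ± 0.055, adjusted p = 0.0110). The lowest co-cultured library lay above the highest monoculture library, and the 2 sorted groups overlapped. Without replicate C, Xbp1 missed the threshold in both comparisons (adjusted p = 0.0585 and 0.133).

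Atf6 (chr1:170704674-170867771), the sensor cut in the Golgi to free a transcription factor, had 36.9, 40.0 and 37.4 CPM in monoculture, 46.4, 49.0 and 44.4 CPM in MitoNegative, and 44.8, 51.4 and 44.6 CPM in MitoPositive. It rose by 1.23-fold in MitoPositive (0.30 ± 0.069, adjusted p = 0.00416) and by 1.22-fold in MitoNegative (0.29 ± 0.069, adjusted p = 0.00576, and 0.0582 without replicate B). Co-cultured libraries lay above monoculture, and the sorted groups were nearly level. Its relative Atf6b rose in MitoPositive by 1.12-fold (0.16 ± 0.060, adjusted p = 0.0478), a call lost in 12 of the 21 alternative analyses, and had a log2 difference of 0.10 ± 0.060 in MitoNegative (adjusted p = 0.197).

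**Figure D2:**
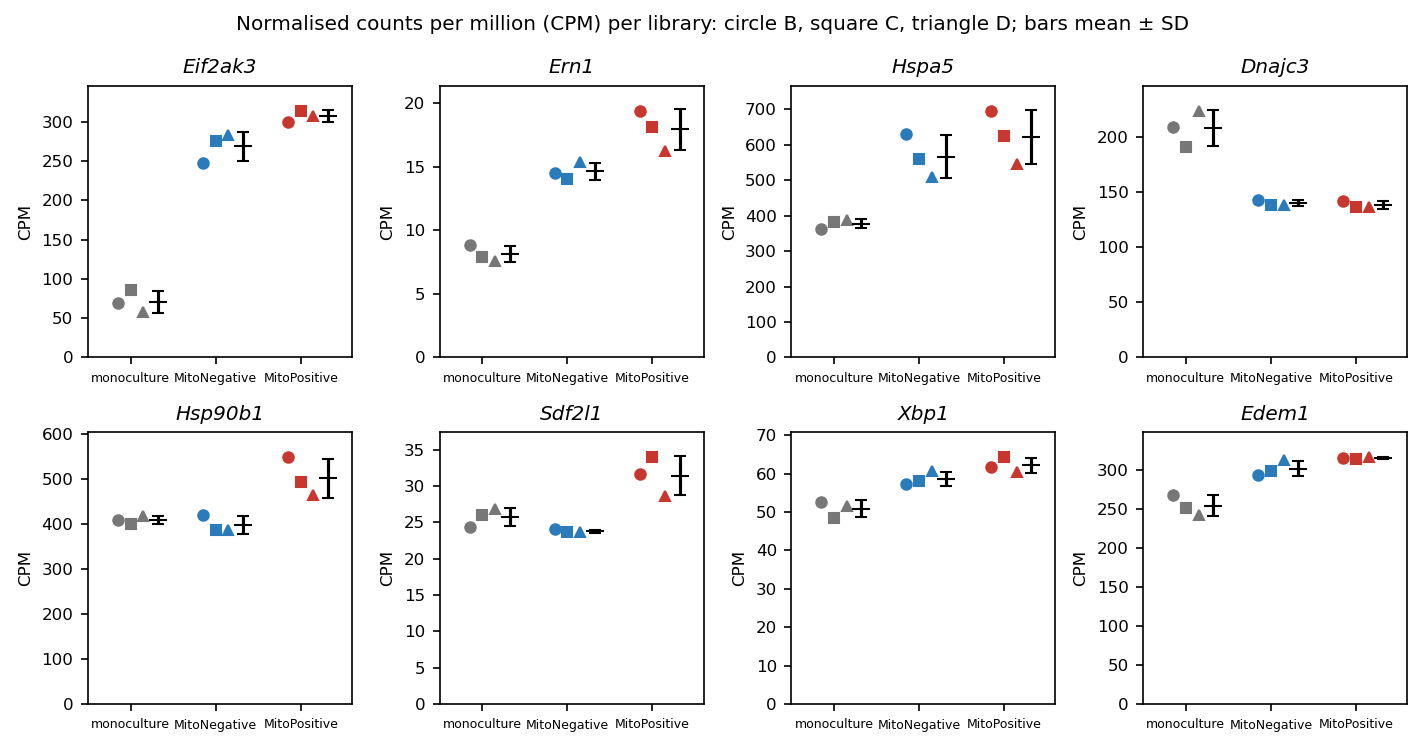
Level in CPM of 8 of the genes in each of the 9 libraries (circle B, square C, triangle D), with the mean and SD of each group at its right and every axis starting at 0. Eif2ak3, Ern1 and Hspa5 are above monoculture in all 6 co-cultured libraries, Dnajc3 is below, and Hsp90b1 and Sdf2l1 are higher in the 3 MitoPositive libraries than in the other 6.

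Among the 11 chaperones and co-chaperones, 5 were higher and 1 was lower in MitoPositive than in monoculture, and 1 was higher and 1 lower in MitoNegative. The shares higher were 45.5% and 9.09%, beside 22.3% and 20.6% of all genes, so the MitoNegative share was below the background. Hspa5 (chr2:34771970-34777547), the gene of BiP, had 363, 383 and 386 CPM in monoculture, 630, 559 and 510 CPM in MitoNegative and 696, 623 and 545 CPM in MitoPositive. Replicate B was the highest and D the lowest in both sorted groups, and all 6 co-cultured libraries were above monoculture. The rise was 1.65-fold in MitoPositive (0.72 ± 0.098, adjusted p = 0.000124), with a log2 rise in MitoNegative close to it (0.59 ± 0.098, adjusted p = 0.000670).

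Dnajc3 (chr14:118937976-118981697) encodes p58IPK, a BiP co-chaperone of the ER lumen that was first described as an inhibitor of eIF2alpha kinases. It was the 1 member called lower in either comparison with monoculture, with 210, 191 and 224 CPM in monoculture, 143, 139 and 139 CPM in MitoNegative and 142, 136 and 137 CPM in MitoPositive. Dnajc3 fell by 0.59 ± 0.063 on the log2 scale in MitoPositive (to 0.665 of monoculture, adjusted p = 2.20e-05) and by 0.57 ± 0.063 in MitoNegative (to 0.673 of monoculture, adjusted p = 3.86e-05). Its promoter held an ERSE, as did that of Hspa5.

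Hsp90b1 (chr10:86690209-86705509), the gene of the ER form of HSP90 known as GRP94, had 407, 400 and 416 CPM in monoculture and 420, 386 and 386 CPM in MitoNegative. It had 548, 493 and 463 CPM in MitoPositive, so the 3 MitoPositive libraries stood above the other 6. Its rise over monoculture was 1.23-fold in MitoPositive (0.30 ± 0.072, adjusted p = 0.00586), whereas MitoNegative had a log2 difference of -0.04 ± 0.072 (adjusted p = 0.726). Sdf2l1 (chr16:17130138-17132383), a partner of BiP and its DnaJ helpers, had 24.3, 26.0 and 26.8 CPM in monoculture, 24.0, 23.7 and 23.7 CPM in MitoNegative and 31.6, 34.0 and 28.6 CPM in MitoPositive. Here too the MitoPositive libraries were the highest 3 of 9, with a rise of 1.22-fold over monoculture (0.29 ± 0.071, adjusted p = 0.00653) beside -0.11 ± 0.071 in MitoNegative (adjusted p = 0.246). Without replicate C the Hsp90b1 call over monoculture was lost (adjusted p = 0.0875), and the Sdf2l1 call was lost without replicate B or C (highest adjusted p = 0.111).

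The lectin chaperone calnexin (Canx), which holds glycoproteins until they fold, rose by 1.18-fold in MitoPositive (0.24 ± 0.064, adjusted p = 0.0100). The large HSP70-like exchange factor Hyou1 rose by 1.16-fold (0.22 ± 0.063, adjusted p = 0.0159). Over the 21 alternatives the Canx call was lost in 2 and the Hyou1 call in 4 (highest adjusted p = 0.135 and 0.125). In MitoNegative their log2 differences were 0.11 ± 0.064 and 0.09 ± 0.063, neither past the threshold. Calreticulin (Calr), the soluble relative of calnexin, had 774 to 877 CPM in monoculture and 835 to 923 CPM in MitoPositive, ranges that overlapped (0.15 ± 0.085, adjusted p = 0.174). The DnaJ co-chaperone Dnajb11 had log2 differences of 0.26 ± 0.10 in MitoPositive and 0.18 ± 0.10 in MitoNegative (adjusted p = 0.0591 and 0.185, and 0.0183 in MitoPositive with the replicate letter as a block). Another, Dnajb9, which represses IRE1 through BiP, had 0.13 ± 0.067 and 0.18 ± 0.067, and the MitoNegative value passed when the replicate letter was fitted as a block (0.18 ± 0.064, adjusted p = 0.0465, against 0.0566 without it). Manf and Creld2, small secreted proteins induced by ER stress, had values of 0.11 ± 0.086 and 0.18 ± 0.076 in MitoPositive, with adjusted p = 0.333 and 0.0731 (0.0461 for Creld2 with the block).

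Of the 4 protein disulfide isomerases, which form and shuffle disulfide bonds, 2 were higher in MitoPositive than in monoculture and 0 in MitoNegative (edgeR, 0 also at an unadjusted p of 0.05). Over all genes the shares higher were 22.3% and 20.6%. Pdia6 had 94.1, 99.4 and 103 CPM in monoculture, 110, 105 and 92.6 CPM in MitoNegative, and 123, 119 and 105 CPM in MitoPositive. It rose by 1.17-fold in MitoPositive (0.23 ± 0.077, adjusted p = 0.0325), where the lowest MitoPositive library was close above the highest monoculture library. P4hb, the founding member of the family, had 247, 262 and 293 CPM in monoculture, 285, 301 and 281 CPM in MitoNegative, and 290, 326 and 309 CPM in MitoPositive. Its rise of 1.15-fold in MitoPositive (0.21 ± 0.074, adjusted p = 0.0415) came with ranges that overlapped, monoculture D being above MitoPositive B. Pdia3, which works with calnexin and calreticulin, had 594, 558 and 679 CPM in monoculture, 633, 582 and 558 CPM in MitoNegative, and 678, 659 and 612 CPM in MitoPositive. The groups overlapped, and the log2 difference of MitoPositive was 0.09 ± 0.085 (adjusted p = 0.423). Pdia4 had 0.03 ± 0.068 (adjusted p = 0.780). The calls of Pdia6 and P4hb were lost in 6 and 7 of the 21 alternatives.

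Of the 9 genes of ER-associated degradation, 3 were higher in MitoPositive and 2 in MitoNegative than in monoculture. These were 33.3% and 22.2%, beside 22.3% and 20.6% of all genes, so the MitoNegative share was near the background. Herpud1, which gathers the ubiquitin ligase complex at the ER membrane, had 59.2, 60.6 and 64.5 CPM in monoculture, 74.6, 82.3 and 76.5 CPM in MitoNegative and 73.0, 90.8 and 74.6 CPM in MitoPositive. All 6 co-cultured libraries were above monoculture, and the rise was 1.29-fold in MitoPositive (0.37 ± 0.082, adjusted p = 0.00337) and 1.27-fold in MitoNegative (0.34 ± 0.082, adjusted p = 0.00638). Edem1, a mannosidase-like protein that marks misfolded glycoproteins, had 269, 252 and 243 CPM in monoculture, 294, 299 and 313 CPM in MitoNegative and 316, 315 and 317 CPM in MitoPositive. The 3 MitoPositive libraries were within 2 CPM of each other and above all other libraries. Edem1 rose by 1.24-fold in MitoPositive (0.31 ± 0.058, adjusted p = 0.00114) and by 1.19-fold in MitoNegative (0.25 ± 0.058, adjusted p = 0.00560, and 0.0925 without replicate C).

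The lectin Os9, which passes glycoproteins to the ligase, rose in MitoPositive (1.23-fold, 0.30 ± 0.074, adjusted p = 0.00634) and had 0.20 ± 0.074 in MitoNegative (adjusted p = 0.0532). Without replicate B or C the Os9 call in MitoPositive was lost (highest adjusted p = 0.124). The ligase Syvn1 (HRD1) had 0.15 ± 0.059 in MitoPositive and 0.09 ± 0.059 in MitoNegative (adjusted p = 0.0613, or 0.0381 with the block, and 0.267), and its partner Sel1l had -0.0016 ± 0.056 and -0.08 ± 0.056. Edem2 had 0.13 ± 0.063 and 0.06 ± 0.063. Of the derlins, which form the exit channel, Derl1 had -0.10 ± 0.068 and 0.02 ± 0.068, and Derl2 had 0.0047 ± 0.0565 and -0.06 ± 0.0565. Derl3, a gene of secretory tissues, was near the floor at 0.688, 1.45 and 1.04 CPM in monoculture, 0.907, 0.859 and 0.489 CPM in MitoNegative, and 0.712, 0.710 and 1.05 CPM in MitoPositive. With 33 to 87 reads a library its groups overlapped throughout and its error was the widest of the 32 (-0.36 ± 0.32 in MitoPositive), so no difference was detectable at this depth.

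No translocon gene passed in either comparison with monoculture. Sec61b, a subunit of the channel through which new proteins enter the ER, had 78.4, 76.4 and 99.9 CPM in monoculture, 79.6, 78.2 and 74.3 CPM in MitoNegative, and 68.0, 76.0 and 76.3 CPM in MitoPositive. Its log2 difference in MitoPositive was -0.21 ± 0.094 (adjusted p = 0.0931), with monoculture D standing apart at the top. Sec61a1, the channel itself, had 163, 165 and 185 CPM in monoculture, 171, 174 and 171 CPM in MitoNegative, and 176, 185 and 181 CPM in MitoPositive (0.08 ± 0.060, adjusted p = 0.325). Ssr1, of the associated TRAP complex, had 148, 147 and 162 CPM in monoculture, 151, 154 and 144 CPM in MitoNegative, and 162, 172 and 159 CPM in MitoPositive (0.11 ± 0.060, adjusted p = 0.166). Monoculture D was the highest of its group for all 3.

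How many members passed depended on the replicate letters. MitoPositive against monoculture gave 9 genes without replicate B, 7 without C and 24 without D, beside 16 with all. Of these 8 were higher without B (25% of the members, beside 16.5% of all genes), 6 without C (18.8%, beside 14.1%) and 23 without D (71.9%, beside 22.2%). Without C the members' share of higher calls was thus close to that of all genes. The 7 genes Eif2ak3, Ern1, Hspa5, Herpud1, Edem1, Atf6 and Dnajc3 passed in all 21 alternatives. In MitoNegative the 5 genes Eif2ak3, Ern1, Hspa5, Herpud1 and Dnajc3 did.

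Between the sorted groups, none of the 32 genes passed in the fit by group (edgeR), where 0.165% of all genes did. At an unadjusted p under 0.05 there were 5 members (15.6%), beside 10.5% of all genes. That fit leaves out the letter, by which the sorted groups were taken as paired. With the letter as a block on all libraries, 2 members were called higher, beside 1.26% of all genes. Fitted on the sorted groups alone, with 2 residual degrees of freedom, the block called 14 higher and 1 lower, beside 9.92% and 8.29% of all genes. By DESeq2 2 members passed, beside 3.22% of the genes it gave an adjusted p, and by limma voom 0, beside 0.21% of all genes. The direction was nonetheless mostly shared: 22 members (68.8%) were higher in MitoPositive in all 3 letters, beside 25.2% of all genes, and 2 (Derl1 and Dnajc3) were lower in all 3 letters, beside 24.7%. In 8 members the MitoPositive libraries did not overlap with MitoNegative and were higher, beside 10.5% of all genes: Sdf2l1, Hsp90b1, Ern1, Eif2ak3, Canx, Ssr1, Sec61a1 and Edem1. Derl1 was the only member below MitoNegative without overlap. The share of all genes that were lower without overlap was not counted. The median log2 difference was 0.09 over the members and -0.00038 over all genes.

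Sdf2l1 had the largest difference of the 32, with MitoPositive over MitoNegative log2 ratios of 0.40, 0.52 and 0.27 in B, C and D. The test gave 1.32-fold (0.40 ± 0.071, adjusted p = 0.0542), and with the letter as a block 0.40 ± 0.070 (adjusted p = 0.0204). Hsp90b1 had ratios of 0.38, 0.35 and 0.26, a fold of 1.26 (0.33 ± 0.072, adjusted p = 0.0862) and 0.33 ± 0.066 with the block (adjusted p = 0.0297). These were the 2 members called higher with the block, beside 1.26% of all genes. Both calls were known when the members were chosen, so the share is a description and no test of the list. Neither passed in MitoNegative over monoculture, a comparison that shares the MitoNegative libraries with this one.

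Ern1 had ratios of 0.42, 0.37 and 0.08, smaller in D than in B and C (1.23-fold, 0.29 ± 0.092, adjusted p = 0.238, and 0.112 with the block). Eif2ak3 had 0.28, 0.19 and 0.12 (0.19 ± 0.12, adjusted p = 0.632), a difference that is small beside its rise of 3.79-fold in MitoNegative over monoculture. Hspa5 had 0.14, 0.16 and 0.10, close to one another although its levels spread widely between letters (0.13 ± 0.097, adjusted p = 0.691). The 4 disulfide isomerases were all higher in each letter, Pdia6 with 0.16, 0.18 and 0.18 (0.18 ± 0.077, adjusted p = 0.456). Xbp1 was level in D at -0.01, with 0.11 and 0.15 in B and C, and Atf6 had ratios of both signs. Dnajc3 was level, at -0.01, -0.03 and -0.02.

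**Figure D3:**
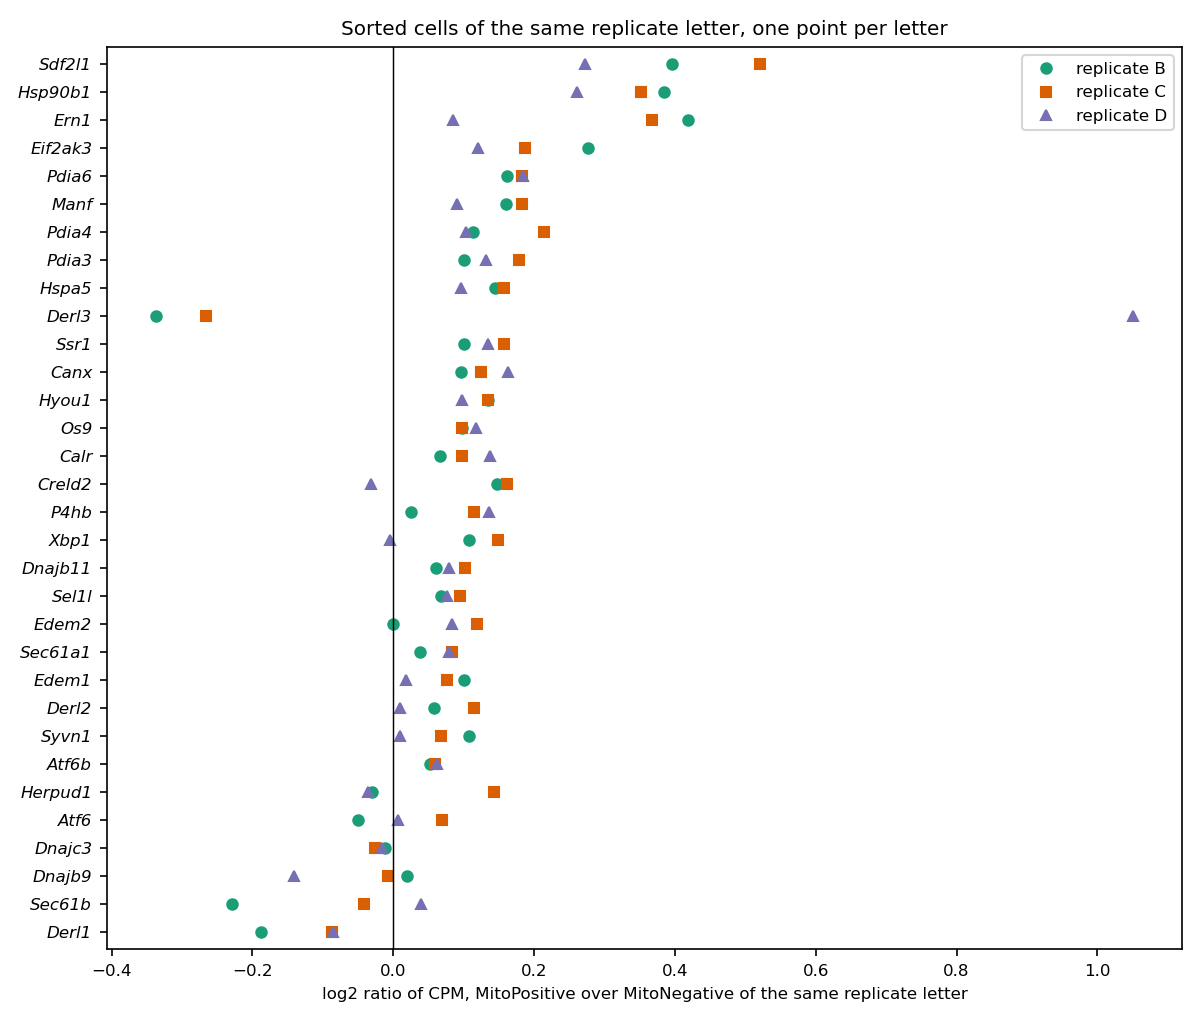
Log2 ratio of CPM in MitoPositive over MitoNegative of the same letter for the 32 genes, ordered by fitted difference, where circle, square and triangle are B, C and D. For 22 genes all 3 points lie to the right of 0, Sdf2l1 and Hsp90b1 lie farthest right in the fit, and the low gene Derl3 scatters from -0.34 to 1.05.

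A block fit to the 6 sorted libraries alone called 14 members higher and 1 (Derl1) lower, beside 9.92% of all genes called higher and 8.29% called lower, with 2 residual degrees of freedom. The members called higher were Hsp90b1, Sdf2l1, Hspa5, Hyou1, Calr, Canx and Manf of the chaperones, Pdia3, Pdia4 and Pdia6 of the isomerases, Ern1, Eif2ak3, Os9 and Ssr1. The fitted differences barely moved (Hspa5 0.14 ± 0.033, adjusted p = 0.00976, and Pdia6 0.18 ± 0.031, adjusted p = 0.000871). In the fits that keep all 9 libraries 0 to 2 members passed.

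Levels between genes were compared per length, as mean CPM per kilobase of exon. Calr, Pdia3 and Os9 were the 3 highest in each group, at 276, 194 and 135 in monoculture and 307, 207 and 167 in MitoPositive. Derl3 was the lowest in each group (0.532 in monoculture and 0.413 in MitoPositive), with Ern1 next above it (0.994 and 2.20). Eif2ak3 moved most in this order, from rank 27 in monoculture (11.7) to rank 10 in MitoNegative (44.6) and rank 9 in MitoPositive (50.9). Dnajc3 moved down from rank 10 (40.5) to ranks 17 and 18 (27.3 and 26.9), and Hspa5 moved from rank 6 (89.2) to rank 4 (134 and 147). Together the 32 genes took 5180 to 5685 CPM in monoculture, 5645 to 6115 CPM in MitoNegative and 6097 to 6606 CPM in MitoPositive. Hspa5, Hsp90b1 and Calr made up 29.3% to 32.4% of that sum in each library.

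**Figure D4:**
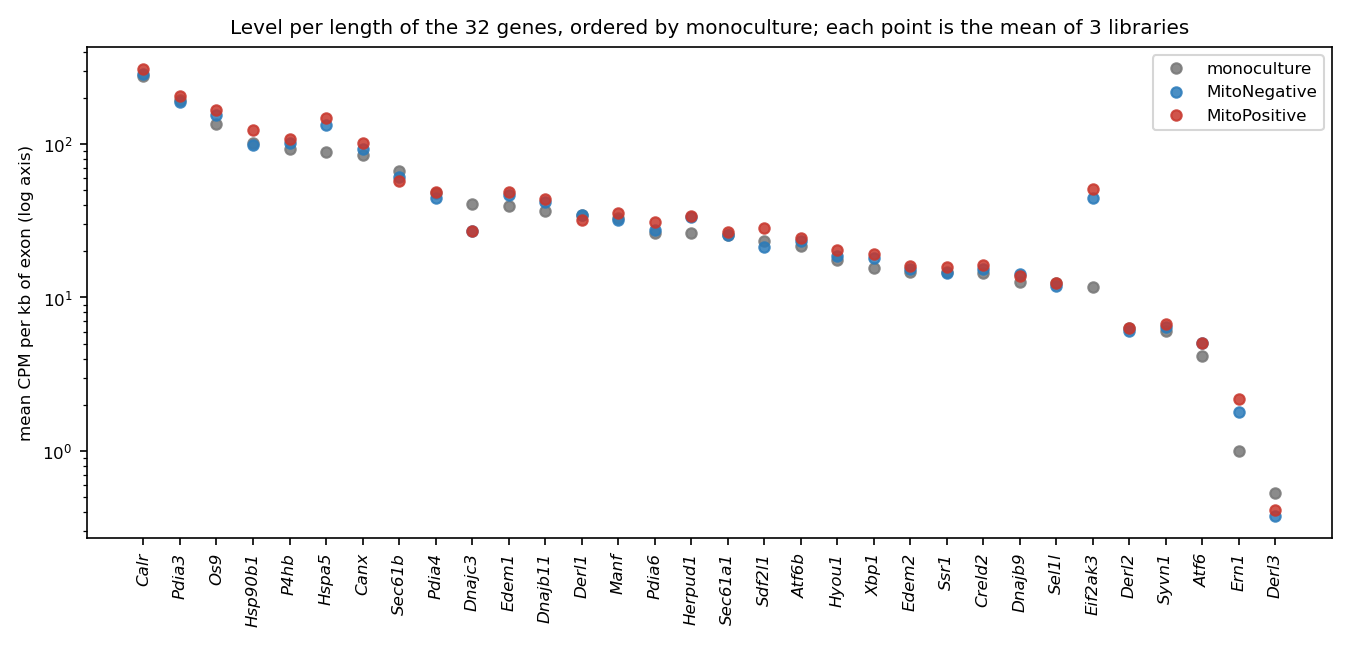
Mean level per kilobase of exon (log axis) of the 32 genes in monoculture (grey), MitoNegative (blue) and MitoPositive (red), each point a mean of 3 libraries, ordered by monoculture. Levels span from under 1 for Derl3 to 307 for Calr, and Eif2ak3 stands farthest above its grey point.

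ERSE and change were set side by side. The 9 members with an ERSE had a median log2 difference of 0.18 in MitoPositive over monoculture (4 higher, 1 lower), and the 18 with a promoter entry and no ERSE had 0.18 (9 higher, 0 lower). In MitoNegative the medians were 0.05 and 0.11, and between the sorted groups 0.13 and 0.08. With ERSE-II counted too, the 11 members with an element had a median of 0.23 in MitoPositive over monoculture and the 16 with neither had 0.15, so the order of the medians depended on the comparison and on the element. Eif2ak3, Ern1 and Xbp1 were among those with none in this window, and members with the element ran from Dnajc3 (-0.59) to Hspa5 (0.72).

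Other genes of the pathway were read from lists that hold none of the 32. In the PERK and ATF4 arm 8 of 11 tested genes were higher and 1 was lower in MitoPositive than in monoculture, and 7 and 1 in MitoNegative. The shares higher were 72.7% and 63.6%, beside 22.3% and 20.6% of all genes. Atf4, the transcription factor translated when PERK acts, rose from 67.3 ± 9.8 CPM (SD, n = 3) in monoculture to 179 ± 7.4 in MitoNegative and 174 ± 15 in MitoPositive (2.58-fold in MitoPositive, adjusted p = 1.34e-06). Asns, which makes asparagine and is an ATF4 target, went from 11.2 ± 0.93 to 26.2 ± 5.3 and 31.5 ± 7.2 CPM (2.81-fold in MitoPositive). Chac1, which degrades glutathione, went from 0.336 ± 0.092 to 3.06 ± 0.60 and 3.18 ± 1.2 CPM (9.37-fold in MitoPositive). ATF4 also answers to kinases other than PERK, such as the sensor of amino acid shortage.

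Ddit3 (CHOP), a pro-apoptotic factor downstream of ATF4, had 21.6 ± 0.89 CPM in monoculture, 56.8 ± 8.8 in MitoNegative and 44.5 ± 5.5 in MitoPositive. With the block it was lower in MitoPositive than in MitoNegative (-0.35 ± 0.067, adjusted p = 0.0262, against 0.261 without the block). A second identifier with this symbol had 0 counts in all libraries, so the Ddit3 value is uncertain. This is the opposite sign to that of Sdf2l1 and Hsp90b1 between the same groups.

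Of 23 other ER chaperones and folding enzymes, 10 were higher and 2 lower in MitoPositive than in monoculture, and 7 and 1 in MitoNegative. That is 43.5% and 30.4% higher, beside 22.3% and 20.6% of all genes. Sil1, the exchange factor that lets BiP release its clients, rose 1.96-fold in MitoPositive (21.6 ± 1.2, 35.7 ± 2.8 and 42.3 ± 3.8 CPM in monoculture, MitoNegative and MitoPositive). Cdnf, the relative of Manf, rose 1.52-fold from a low level (1.97 ± 0.31, 3.36 ± 0.34 and 2.99 ± 0.47 CPM), and Hspa13, an HSP70-like ATPase, 1.43-fold (22.4 ± 0.77, 30.5 ± 1.6 and 32.1 ± 0.62 CPM). Ero1l, the oxidase that recharges disulfide isomerases, had 68.7 ± 1.7, 78.2 ± 1.6 and 94.5 ± 5.0 CPM. It was higher in MitoPositive than in MitoNegative with the block (0.27 ± 0.051, adjusted p = 0.0244, against 0.0658 without it). This call, like that of Ddit3 with the block, was known when the lists were chosen.

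The remaining lists had calls in both directions, and the genes named here are the 3 called with the largest change in MitoPositive over monoculture. Of 21 other degradation genes 3 were higher and 3 lower in MitoPositive than in monoculture, led by Svip, an inhibitor of degradation (2.32-fold higher, 0.529 ± 0.068 to 1.23 ± 0.37 CPM), the ubiquitin-conjugating Ube2g2 (1.22-fold higher) and the ATPase Vcp (1.21-fold lower). Of 22 other translocon and signal peptide genes 7 were higher and 5 lower. Among them were Srp72 of the signal recognition particle (1.60-fold higher), Srp9 of the same particle (1.35-fold lower) and Tram2 (1.75-fold lower). N-glycosylation and glycan trimming had 6 higher and 4 lower of 22, with Uggt2 (1.95-fold higher), Alg2 (1.53-fold higher) and the glucosidase subunit Prkcsh (1.26-fold higher). In MitoNegative over monoculture glycosylation had 4 higher and 7 lower and the translocon and signal peptide list 4 higher and 6 lower. There the degradation list had 3 higher and 2 lower, and stress regulators and transport each had 2 and 2. Other stress sensors and regulators had 5 higher and 3 lower of 14, with Creb3l1 (1.79-fold higher), Wfs1 (1.78-fold higher) and Bloc1s1, a known target of IRE1's RNA cleavage (1.64-fold lower). Transport from ER to Golgi had 4 higher and 3 lower of 21, with the cargo receptor Lman1 (1.27-fold higher) and the coat subunits Sec24c (1.32-fold lower) and Sec24d (1.38-fold lower). Over these remaining lists the share higher in MitoPositive ran from 14.3% (degradation) to 35.7% (stress regulators), beside 22.3% of all genes. In MitoNegative it ran from 9.52% (transport) to 18.2% (translocon and glycosylation), below the 20.6% of all genes. Over all genes 19.9% were lower in MitoPositive and 18.3% in MitoNegative. No gene of these 7 lists passed between the sorted groups in the fit by group, beside 0.165% of all genes. With the block on all 9 libraries Ero1l and Ddit3 passed. The block fit to the 6 sorted libraries alone called more: 12 of the 22 glycosylation genes higher, 6 translocon genes higher and 1 lower, 5 other chaperones higher, and 3 genes of the PERK and ATF4 arm higher and 3 lower. It also called 2 degradation genes lower, 1 stress regulator higher, and 3 transport genes higher and 1 lower. Over all genes that fit called 9.92% higher and 8.29% lower.

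Some counts could be shared with other genes. In the annotation 10 of the 32 genes had an exon that overlaps another gene, and whether counting used the strand is not given in the sources used here. Derl2 overlaps Mis12 on the opposite strand over 231 bases, Syvn1 overlaps Mrpl49 over 91 bases, and Manf overlaps Dcaf1 and Rbm15b, all with counts of a like order. For these 3 members the values are uncertain. The gene on the opposite strand of Hsp90b1 had 2.13% of its counts, and that of Eif2ak3 had 0.201%. Sec61b and Derl1 have copies of at least 95% identity elsewhere, none with more than 0.309% of the gene's counts.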

How the data were processed

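Raw counts per gene were deposited by the authors for 9 libraries, and per the submitters' processing notes they used bcl2fastq, cutadapt, STAR 2.7, featureCounts, DESeq2 and the build GRCm38. Per the labels' protocols, ribosomal RNA was depleted from total RNA before KAPA HyperPrep libraries were made, and whether counting used the strand is not given in the sources used here. The table held 55421 genes and 99 rows that name no gene, which had 0 counts and were left out.

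The counts were fitted in R 4.3.3 with edgeR 4.0.16 (filterByExpr at a count of 10 and a total of 15, TMM scaling, robust quasi-likelihood fit by group, 6 residual degrees of freedom). This kept 15711 genes and at least 99.96% of each library's counts, with Benjamini-Hochberg adjustment over them and a threshold of 0.05. CPM are counts as a rate of the TMM-scaled library size (per 1000000), and values after ± are standard errors of log2 fold changes unless SD is written. Chi-square divided by its degrees of freedom was 17.4 to 59.7 between replicates of a group, beyond sampling noise.

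Whether the letters pair libraries was checked by the correlation of their deviations from the group means, with a threshold of 0.1. It was 0.402, 0.339 and 0.459 (B, C, D) between MitoPositive and MitoNegative, and 0.213, 0.153 and 0.111 between MitoNegative and monoculture, so these were taken as paired. The main calls nonetheless come from the fit by group, which leaves the letter out, and the block fits are given as alternatives. Between MitoPositive and monoculture it was 0.248, 0.0521 and 0.163. Adding the letter as a block leaves 4 residual degrees of freedom. Other alternatives were DESeq2 1.42.0, its size factors, limma voom (limma 3.58.1), total counts, no filter, a minimum count of 50, fits to 2 groups, and leaving out each library or letter.

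The members and gene lists were chosen with earlier results of these data known, including the calls of Sdf2l1, Hsp90b1, Ero1l and Ddit3 with the block. All 32 members are accounted for. Values in every library were given for members called between the sorted groups with or without the block, for the 3 of each role with the largest change in MitoPositive over monoculture, and for Hspa5, Xbp1, Ern1, Atf6 and Eif2ak3. From each other list came up to 3 called genes with the largest change in MitoPositive over monoculture and any gene called between the sorted groups. Coordinates are those deposited with the counts, equal to GENCODE M21 for the 32 members. Promoter sequences are RefSeq's on GRCm38.p6, so a start can differ from that of the deposited annotation, as it did for Hspa5 and Hsp90b1.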

Additional observations from a re-analysis of the deposited data

How the results depend on the processing

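Called members kept their direction under all 21 alternatives in both comparisons with monoculture. The count of 16 members called in MitoPositive over monoculture stayed within 1.5 times except without 1 letter (7 to 24 over the leave-outs). In MitoNegative over monoculture the 8 calls stayed within that bound (6 to 12). Between the sorted groups 0 passed in the fit by group. DESeq2 gave 2 there, no filter on low counts 2, and the replicate block 2. The paired replicate block fitted on the 2 sorted groups alone gave 15. Leaving out libraries or letters gave 0 to 1, the 1 being Sdf2l1. The block on all 9 libraries changed no other member's call than those given in the report. No scaling moved the median of all genes by over 0.1 on the log2 scale. With total counts as the scale that median was 0.0373 in MitoPositive over monoculture, against 0.0034 in the main fit. There 22 members were called (21 higher), and 3844 of 15711 genes were higher.

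Sign changes were seen only in members below the threshold, and the cause was not tested. Sel1l in MitoPositive over monoculture turned to 0.0317 with total counts, 0.0198 without a filter, 0.0142 with a minimum count of 50, 0.0124 with 2 groups and 0.0124 with the replicate block on 2 groups. Leaving out libraries gave these lowest and highest log2 differences. In MitoPositive over monoculture they were Pdia4 -0.0207 to 0.133, Sel1l -0.0482 to 0.0711, Derl2 -0.0208 to 0.0494 and Derl3 -0.594 to 0.0199. In MitoNegative over monoculture they were Hsp90b1 -0.0716 to 0.00317, Pdia3 -0.109 to 0.0822, Pdia6 -0.0278 to 0.154, Calr -0.0323 to 0.19, Manf -0.101 to 0.082, Derl1 -0.053 to 0.107, Ssr1 -0.0671 to 0.0553, Sec61b -0.212 to 0.0324 and Sec61a1 -0.0243 to 0.0817. Between the sorted groups they were Dnajb9 -0.077 to 0.0179, Dnajb11 -0.0145 to 0.175, Herpud1 -0.0759 to 0.0881, Derl3 -0.306 to 0.391, Atf6 -0.0597 to 0.0513 and Sec61b -0.127 to 0.00176. Counts of the other lists moved by over 1.5 times in 14 of 63 values between the sorted groups, in 1 of 63 and 2 of 63 against monoculture. Of these, other degradation genes went to 10 called with a minimum count of 50 in MitoPositive, and in MitoNegative to 8 with total counts and 8 with the replicate block. Leaving out an arm's library left 2 in that arm.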
